A study of Mus musculus with 32 samples.

Results

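The comparison described here set a miR-7a-5p mimic against a miR-146a-5p mimic in LPS-treated BV-2 cells, and it used 8 of the 32 libraries of the series. BV-2 is an immortalised mouse microglial line, kept as a culture model of the macrophages of the brain. All 8 libraries came from cells given lipopolysaccharide (LPS, a component of the bacterial outer membrane) at 10 ng/ml for 24 h, and 4 of them received the miR-7a-5p mimic (LPS_miR-7a) and 4 the miR-146a-5p mimic (LPS_miR-146a). The labels place the LPS before the transfection, whereas the study's methods place the transfection first, so the order of both steps is not settled here. Beside these, 4 LPS-treated libraries with a scramble control mimic (LPS_scramble) and the 8 vehicle libraries with the same mimics (VEH_miR-7a and VEH_miR-146a) are used below to place the values. As a culture of a single line it lacks the neurons and astrocytes that surround microglia in tissue, and the replicates were independent experiments with that line. Ribosomal RNA-depleted total RNA was sequenced. Values are normalised counts (CPM, in which every library is scaled to a common size), and differences are log2 fold changes of LPS_miR-7a over LPS_miR-146a, so that a positive value is a gene higher with miR-7a.

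MicroRNAs guide Argonaute proteins to messenger RNAs whose 3′ untranslated region (UTR) pairs with the seed, bases 2 to 8 of the small RNA, and the bound messengers are translated less and decay faster. miR-146a is itself induced by NF-kappa-B after LPS and is known as a brake on Toll-like receptor signalling through the adaptors Irak1 and Traf6. miR-7a is abundant in neurons and endocrine cells, and Pik3cd and Irs2 are among its reported targets. The mature RNAs are shown because their seeds, in capitals, share no site: miR-7a-5p is encoded by Mir7-1 (chr13:58392841-58392863, minus strand, GRCm38.p6) among other loci and miR-146a-5p by Mir146 (chr11:43374435-43374456, minus strand), with sequences from RefSeq.
miR-7a-5p: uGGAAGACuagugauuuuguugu
miR-146a-5p: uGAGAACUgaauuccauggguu
The matching sites in a transcript read GTCTTCC for miR-7a and AGTTCTC for miR-146a, and a site followed by A is called an 8-mer here. The table does not measure the transfected duplexes: the hairpin gene Mir7-1 had at most 4 counts in any LPS_miR-7a library, and Mir146 had at most 1 in any LPS_miR-146a library. The labels were therefore not checked by the level of the mimic itself.

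The 8 libraries held 3646700 to 11855520 counts after lost decimal marks were restored. LPS_miR-146a replicate 4 was the shallowest and stood apart on the first principal component of the 16 LPS libraries, at -107.7 against -13.5 to 26.0 in the other 15. No pair of libraries was identical. The share of mitochondrially encoded counts was 1.43% ± 0.501 (SD, n = 4) in LPS_miR-7a and 2.61% ± 0.520 (SD, n = 4) in LPS_miR-146a (two-sided exact permutation p = 0.0571, adjusted p = 0.286 over 5 library measures, smallest possible p = 0.0286). It was lower with miR-7a in 4 of 4 replicate pairs, by 1.05 to 1.34 percentage points (two-sided exact paired permutation p = 0.125, the smallest that 4 pairs allow). The 12 macrophage and microglia markers summed to 4562 to 6221 CPM with miR-7a and 6054 to 6949 CPM with miR-146a. Neuron, astrocyte and fibroblast markers summed to at most 2.42 CPM in any of the 8 libraries, oligodendrocyte and T and B cell markers to at most 7.31 CPM, and the 6 endothelial markers to 363 to 467 CPM in both groups, with 3 of the 6 under 1 CPM in all 8 libraries. In bulk RNA, fewer cells of a state and less RNA per cell cannot be told apart.

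**Figure D1:**
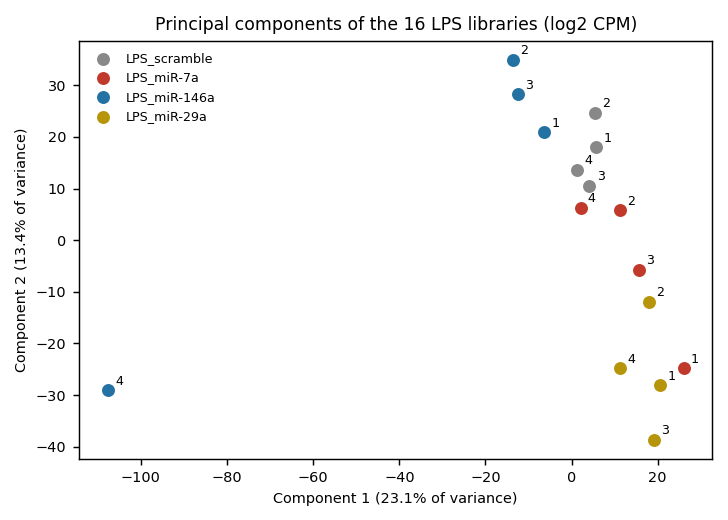
Each point is 1 of the 16 LPS-treated libraries, placed by principal components 1 and 2 of log2 CPM over 13766 genes, with the share of variance on each axis and colour for the mimic. LPS_miR-146a replicate 4 lies at -107.7 on component 1, and the other 15 libraries lie between -13.5 and 26.0.

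Of 12630 genes tested with limma, 479 were higher with miR-7a (3.79% of genes tested) and 345 were lower (2.73%), together 824 genes (6.52%) at an adjusted p under 0.05 and an absolute log2 fold change over 0.3. The same replicate numbers in both groups were taken as paired experiments. With the number as a block 1427 genes were higher (11.3%) and 1223 lower (9.68%), with all 824 genes kept. Counts of list members below are to be read beside these shares of all genes, without and with the block. Adjusted p values of single genes below are from fits without the block. Genes of the interferon response and of DNA replication were higher with miR-7a, and immediate-early genes were lower. Single scavenger, lysosomal and acute-phase genes were called in both directions. The higher share of lysosomal genes and the lower share of phagocytic receptors were near those of all genes. The count of calls depended on single libraries. It was 220 without LPS_miR-7a replicate 3, 419 without replicate 2 and 543 without replicate 1 of that group, and 345, 466 and 266 without LPS_miR-146a replicates 1, 2 and 3. Without LPS_miR-146a replicate 4 it was 770, of which 615 were among the 824. Of 107 called genes chosen for naming by a fixed rule, 51 passed whichever library was left out, and where a gene given below with its adjusted p did not, the highest adjusted p among these fits follows with the library left out.

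Type I interferon-stimulated genes, which cells switch on when they sense interferon, were higher with miR-7a. Of 35 tested members of that list, 25 were higher with miR-7a, none was lower and 10 did not pass, against 3.79% higher among all genes. The median log2 fold change of the list was 1.07, against 0.01 over all genes tested. With the replicate block 31 were higher.
Rsad2 (viperin, an antiviral enzyme that makes a chain-terminating nucleotide; chr12:26442746-26456452) was at 363, 333, 596 and 225 CPM in LPS_miR-7a and at 86.4, 69.8, 107 and 72.8 CPM in LPS_miR-146a. The groups did not overlap, and the lowest miR-7a library was above the highest miR-146a library. Of all 12630 genes tested, 1071 were higher with miR-7a without overlap and 783 were lower. The genes named here were mostly picked among called genes, so a lack of overlap is no separate support. The log2 fold change was 2.08 ± 0.25 (SE), 4.24-fold, with an adjusted p of 0.00184 in limma.
Ifit3, which binds viral RNA together with other members of its family (chr19:34583531-34588731), was at 42.8, 41.3, 112 and 33.4 CPM with miR-7a and at 7.13, 6.14, 10.7 and 3.76 CPM with miR-146a. Replicate 3 was the highest library of each group, and no value of one group reached the other. Its log2 fold change was 2.84 ± 0.46 (SE), with a limma adjusted p of 0.00644.
Ifi44, an interferon-induced protein of the cytoplasm (chr3:151730922-151749960), was at 37.4, 36.6, 59.6 and 24.7 CPM against 4.92, 5.04, 7.50 and 1.07 CPM. It rose by a log2 fold change of 3.01 ± 0.44 (SE), with a limma adjusted p of 0.00415. Slfn4, Trim30a and Xaf1, all induced by interferon in myeloid cells, rose by 1.92, 1.80 and 1.74 on the log2 scale, with limma adjusted p values of 0.000683, 0.00134 and 0.00191. Trim30a overlaps a gene on the opposite strand. Apol9b, a lipid-binding interferon-induced gene with a near-identical neighbour, was at 19.7 to 48.3 CPM against 2.53 to 4.84 CPM (log2 fold change 2.96, limma adjusted p = 0.00243), and its reads may be split with that copy.

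Guanylate-binding proteins and immunity-related GTPases, interferon-induced enzymes that attack the membranes around intracellular microbes, moved the same way. Among 8 tested guanylate-binding proteins 6 were higher and none lower (median log2 fold change 1.66), and among 5 tested immunity-related GTPases 4 were higher and none lower (median 1.10). These are families of near-identical genes, so the split of reads between members is uncertain. Gbp7 was at 50.008, 33.7, 52.9 and 21.5 CPM with miR-7a and at 10.8, 7.77, 10.7 and 1.88 CPM with miR-146a, without overlap (log2 fold change 2.23, limma adjusted p = 0.0137). Gbp3 and Gbp6 rose by 1.72 and 1.59 on the log2 scale, with limma adjusted p values of 0.00825 and 0.00518. Irgm1, a regulator of the other members (chr11:48861968-48871683), was at 109, 92.1, 123 and 72.9 CPM against 45.6, 45.5, 50.3 and 36.8 CPM. Its groups did not overlap, and the log2 fold change was 1.10 ± 0.18 (SE), with a limma adjusted p of 0.00667. The count of called guanylate-binding proteins was 3 when LPS_miR-146a replicate 3 was left out. That of immunity-related GTPases was 2, 2 and 1 without LPS_miR-146a replicates 1, 2 and 3, and 2 and 2 without LPS_miR-7a replicates 2 and 3.

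Sensors of nucleic acids rose in 7 of 13 tested members, with none lower and a median of 0.61 (under the replicate block, 8 were higher and 1 lower), and in 3 or 4 when any one of LPS_miR-146a replicates 1, 2 and 3 or LPS_miR-7a replicates 1, 2 and 3 was left out. Zbp1, a sensor of Z-form nucleic acid that can start necroptosis, was at 13.7, 10.6, 20.9 and 12.2 CPM with miR-7a and at 1.87, 2.00, 2.09 and 3.22 CPM with miR-146a. Its log2 fold change was 2.68 ± 0.34 (SE), with a limma adjusted p of 0.00216. Tlr3, the endosomal receptor for double-stranded RNA, was at 13.5 to 24.9 CPM against 4.94 to 9.40 CPM (log2 fold change 1.62, limma adjusted p = 0.00739). Mb21d1, which encodes the DNA sensor cGAS, rose by 1.29 with a limma adjusted p of 0.0136, and its adjusted p was 0.055 without LPS_miR-146a replicate 3. Of 14 tested IRF and STAT factors 3 were higher (21.4% against 3.79% of all genes tested) and none lower. Irf7 was among the higher ones (log2 fold change 0.88, limma adjusted p = 0.0286, 0.0935 without LPS_miR-7a replicate 3). With the replicate block 4 of these factors were higher and 2 lower, where it called 11.3% and 9.68% of all genes. With LPS_miR-146a replicate 1 or LPS_miR-7a replicate 3 left out, 0 of them passed. Of 8 tested chemokines, 3 were higher (37.5% against 3.79% of all genes tested) and 1 lower (12.5% against 2.73%). The higher count was 0 without LPS_miR-146a replicate 3 and 1 without LPS_miR-146a replicate 1 or 2 or LPS_miR-7a replicate 1 or 3, and the lower count was 0 without LPS_miR-146a replicate 1, 3 or 4 or LPS_miR-7a replicate 2, 3 or 4. Ccl2, which draws monocytes, was at 25.7, 12.5, 22.1 and 7.18 CPM against 3.25, 0.630, 1.90 and 1.07 CPM (log2 fold change 3.21, limma adjusted p = 0.0162, 0.0549 without LPS_miR-146a replicate 3).

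Promoters of the interferon genes were read for a motif because their members rose together. The letters GAAANNGAA, the core of the element bound by interferon-activated factors, were searched on both strands from 250 bases before to 50 after each start in the RefSeq promoter table (GRCm38.p6). They stood in 9.76% of 27025 promoters and in 8.76% of the 8669 promoters of genes tested. Among interferon-stimulated genes 15 of 24 matched promoters held them (62.5%), as did 4 of 4 guanylate-binding proteins and 4 of 4 immunity-related GTPases. The windows from Ifit3 (chr19:34583366-34583390, plus strand) and Rsad2 (chr12:26456555-26456579, minus strand) show the motif, read on the other strand, in capitals.
Ifit3 promoter: tggtaagtTTCACTTTCctcttctg
Rsad2 promoter: gtccaactTTCATTTTCagaaaaca
A match is a stretch of letters and says nothing about binding in these cells.

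**Figure D2:**
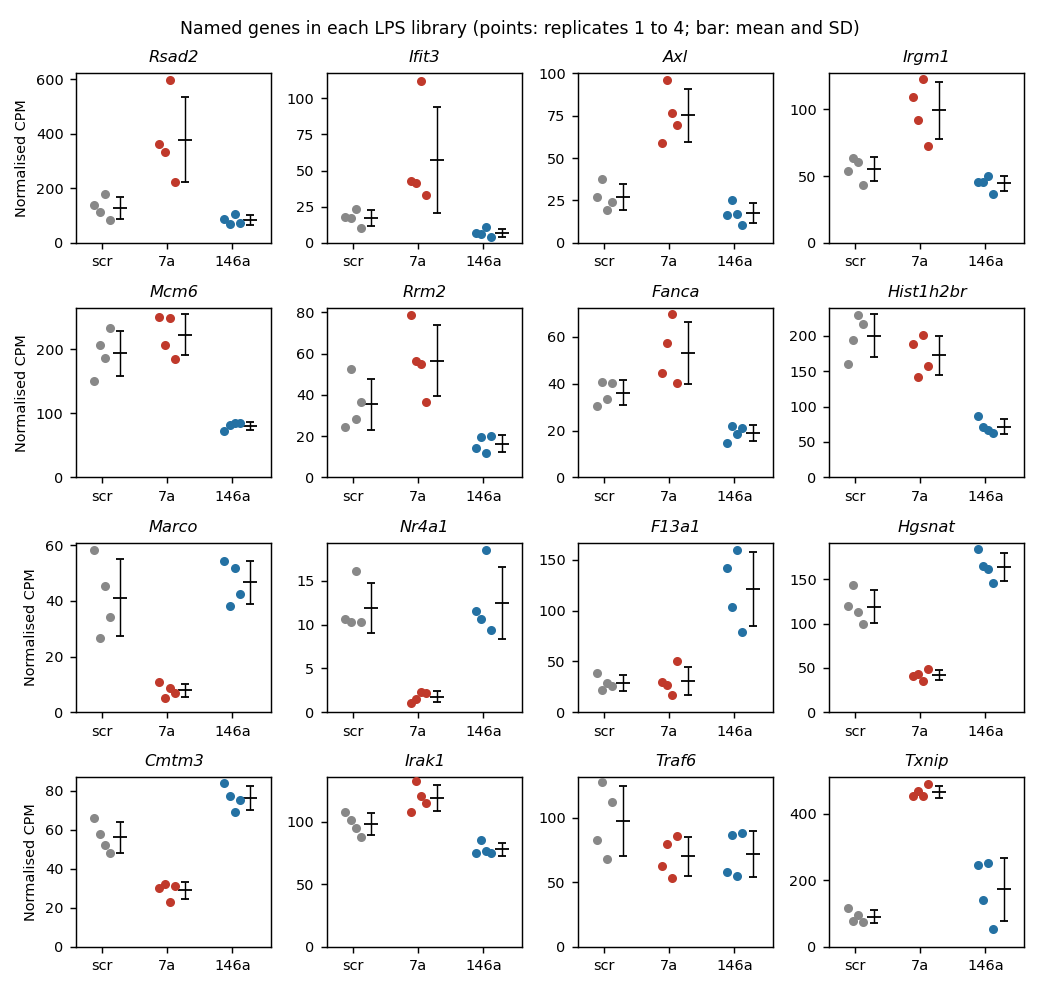
Normalised CPM on linear axes from 0 for 16 genes, with a point for each library of LPS_scramble (scr), LPS_miR-7a and LPS_miR-146a, from left to right, and the mean ± SD of each group of 4. Rsad2, Ifit3, Axl, Irgm1, Mcm6, Rrm2 and Fanca are higher with miR-7a than with miR-146a without overlap, Marco, Nr4a1, F13a1, Hgsnat and Cmtm3 lower, and the points of Traf6 overlap.

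DNA replication genes were higher with miR-7a in 33 of 43 members tested, with none lower, a median log2 fold change of 1.11 and 42 called with the replicate block. All 43 had a positive difference. The count was 19 without LPS_miR-7a replicate 3 and 20 without LPS_miR-146a replicate 3.
Mcm6, a subunit of the helicase that opens DNA for replication (chr1:128331590-128359664), was at 251, 207, 249 and 185 CPM in LPS_miR-7a and at 71.8, 81.9, 85.4 and 84.4 CPM in LPS_miR-146a. The lowest miR-7a value lay above the highest miR-146a value. The log2 fold change was 1.45 ± 0.14 (SE), 2.74-fold, with a limma adjusted p of 0.000554.
Rrm2, the S-phase subunit of ribonucleotide reductase (chr12:24708241-24714146), was at 78.8, 56.4, 54.9 and 36.5 CPM against 14.3, 19.4, 11.8 and 20.2 CPM, which is a log2 fold change of 1.79 ± 0.26 (SE) with a limma adjusted p of 0.00411. Pole, a leading-strand polymerase, and Rpa1, which coats single-stranded DNA, rose by 1.48 and 1.16, with limma adjusted p values of 0.00321 and 0.00243.

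Homologous recombination and Fanconi repair genes, which mend breaks and crosslinks mostly during S and G2 phase, were higher in 12 of 18 tested, with none lower (median 1.09). Fanca, a subunit of the Fanconi core complex that overlaps a gene on the opposite strand, was at 44.4, 57.5, 69.6 and 40.4 CPM with miR-7a and at 14.6, 21.9, 18.3 and 20.958 CPM with miR-146a. Its groups did not overlap, and the log2 fold change was 1.48 ± 0.21 (SE), with a limma adjusted p of 0.00411. Bard1, which acts in break repair, rose by 1.24 (limma adjusted p = 0.00846).
Replication-dependent histones, whose transcripts are made in S phase and mostly lack a poly(A) tail, were higher in 37 of 61 tested, with none lower, a median of 0.90 and 56 called with the replicate block. The count was 11 without LPS_miR-7a replicate 3, and it was 20 and 13 without LPS_miR-146a replicates 1 and 3. Histone genes are near-identical copies, so the value of a single one is uncertain. Hist1h2br was at 189, 142, 200 and 157 CPM against 87.0, 70.9, 67.0 and 62.3 CPM (log2 fold change 1.24, limma adjusted p = 0.00202).
Of 34 mitosis and spindle genes 8 were called higher and none lower (median 0.58), with 26 higher under the block. The count was 3, 1 and 5 without LPS_miR-146a replicates 1, 3 and 4, and 2, 4 and 1 without LPS_miR-7a replicates 1, 2 and 3. Tpx2, which nucleates spindle microtubules, was at 164 to 205 CPM with miR-7a and at 96.8 to 122 CPM with miR-146a (log2 fold change 0.75, limma adjusted p = 0.00869).

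The letters TTTNGCGC, as bound by E2F factors, stood in 1.57% of 27025 promoters and 3.02% of the 8669 of genes tested. They were found in 10 of 34 matched replication promoters (29.4%), in 1 of 30 mitosis promoters (3.33%), in 1 of 14 recombination promoters (7.14%) and in 0 of 24 interferon-stimulated promoters. Conversely, 0 of 34 replication promoters held GAAANNGAA. The Mcm6 window (chr1:128359800-128359823, minus strand, GRCm38.p6) shows the letters in capitals.
Mcm6 promoter: cgtatgctTTTGGCGCgaaaagtg

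**Figure D3:**
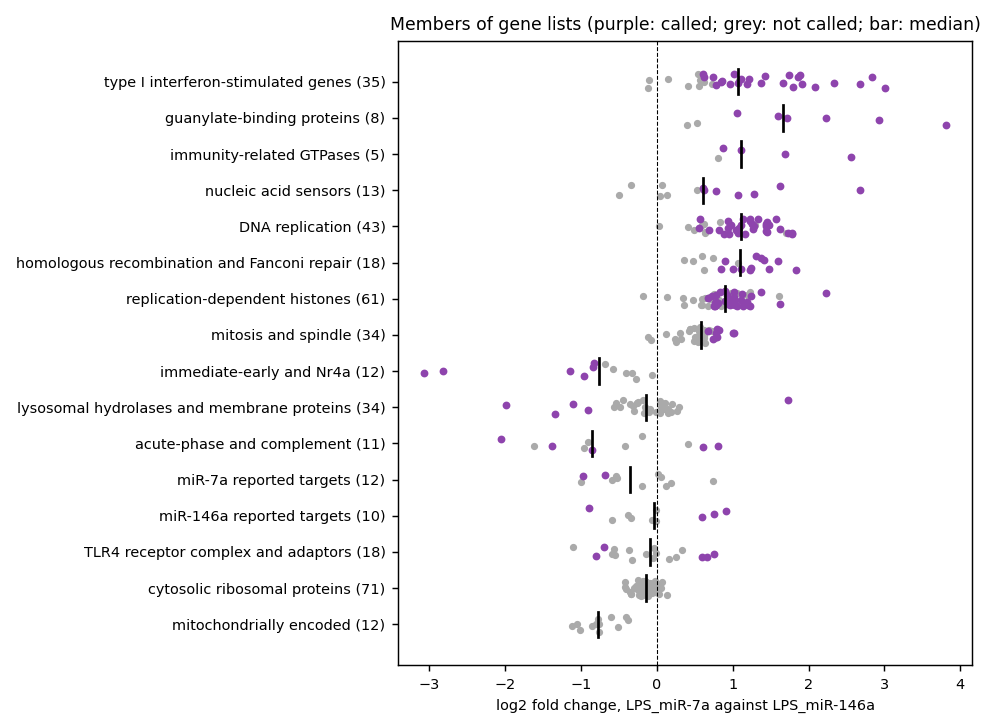
Log2 fold change of LPS_miR-7a over LPS_miR-146a for the tested members of 16 gene lists, with called genes in purple, a bar at the median of each list and a dashed line at the median of all genes (0.01). The medians of interferon-stimulated genes (1.07), guanylate-binding proteins (1.66) and DNA replication (1.11) lie right of the line and that of immediate-early genes (-0.76) lies left of it.

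Immediate-early and Nr4a genes, transcription factors switched on within minutes by growth and stress signals, were lower with miR-7a. Of 12 tested, 6 were lower and none higher, against 2.73% lower among all genes, and all 12 had a negative difference (median -0.76).
Nr4a1, an orphan nuclear receptor of this class (chr15:101254269-101274795), was at 1.02, 1.45, 2.33 and 2.24 CPM in LPS_miR-7a and at 11.5, 10.6, 18.5 and 9.40 CPM in LPS_miR-146a. The groups stood far apart, and the log2 fold change was -2.81 ± 0.35 (SE), 7.03-fold lower, with a limma adjusted p of 0.00201. Egr3, a zinc-finger factor (chr14:70077203-70082614), was at 0.482 to 1.47 CPM against 5.36 to 9.12 CPM (log2 fold change -3.06, limma adjusted p = 0.00256). Jun and Ier2 fell by 0.83 and 1.15 on the log2 scale, with limma adjusted p values of 0.00966 and 0.00644.

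Among scavenger, lysosomal and acute-phase genes, single members were called in both directions. Marco, a scavenger receptor that takes up bacteria and particles (chr1:120474538-120505024), was at 10.7, 5.11, 8.64 and 6.72 CPM with miR-7a and at 54.2, 38.1, 51.8 and 42.5 CPM with miR-146a. No value overlapped, and the log2 fold change was -2.65 ± 0.23 (SE), with a limma adjusted p of 0.000269. The opposite was seen for Axl, a receptor tyrosine kinase that clears apoptotic cells and is induced by interferon (chr7:25757273-25788705), at 58.9, 95.8, 76.6 and 69.5 CPM against 16.3, 25.1, 17.3 and 10.7 CPM. Its log2 fold change was 2.08 ± 0.23 (SE), with a limma adjusted p of 0.000683. Over 23 tested phagocytic receptors 2 were higher (Axl and Fcgr1, 8.70% against 3.79% of all genes tested) and 1 was lower (Marco, 4.35% against 2.73%), with a median of -0.20. With the block 2 were higher and 6 lower. The lower share without the block is 1 gene and lies near that of all genes. Fcgr1 kept its call only without LPS_miR-7a replicate 1, with adjusted p up to 0.121 in limma without LPS_miR-7a replicate 3.
Hgsnat, a lysosomal enzyme that acetylates heparan sulfate (chr8:25944453-25976753), was at 41.3, 42.8, 35.2 and 48.8 CPM against 184, 165, 162 and 145.9 CPM. No gene named for this comparison had a lower adjusted p, 8.66e-05 in limma, with a log2 fold change of -1.98 ± 0.14 (SE). Of 34 lysosomal genes 4 were lower (11.8% against 2.73% of all genes tested) and 1 was higher (2.94% against 3.79%), and with the replicate block 8 were lower and 1 higher. Among them, Tpp1 and Ctsf fell by 0.91 and 1.10 on the log2 scale (limma adjusted p = 0.00274 and 0.00195), and Acp5, the tartrate-resistant phosphatase, rose by 1.73 (limma adjusted p = 0.000269).
Sepp1, the secreted selenium carrier (chr15:3268547-3280508), was at 86.1, 66.2, 86.5 and 103 CPM with miR-7a and at 448, 255, 513 and 352 CPM with miR-146a. The gap between the groups was wide, with a log2 fold change of -2.17 ± 0.21 (SE) and a limma adjusted p of 0.000554. F13a1, the clotting factor XIII subunit found in tissue macrophages (chr13:36867178-37050244), was at 30.1, 27.1, 17.1 and 49.9 CPM against 142, 104, 160 and 79.3 CPM (log2 fold change -2.05, limma adjusted p = 0.00415). Acute-phase and complement genes were lower in 3 of 11 (F13a1, Saa3 and Cp, 27.3% against 2.73% of all genes tested). They were higher in 2 (18.2% against 3.79%), among them C3 (log2 fold change 0.81, limma adjusted p = 0.0115). With the block 6 were lower and 2 higher, where it called 9.68% and 11.3% of all genes. Cp did not pass in 4 of the fits without 1 library (adjusted p up to 0.0863, without LPS_miR-7a replicate 3), and the higher count was 1 without LPS_miR-146a replicate 1, 3 or 4 or LPS_miR-7a replicate 2 or 3. Cat, the catalase gene, fell by 1.39 (limma adjusted p = 0.00105).

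The reported targets of each microRNA were described next. Both groups received an active mimic, so a difference alone does not say which mimic moved a gene. Against scramble, the reported miR-146a targets had a median of 0.05 for miR-146a, with 1 called lower, and of -0.05 for miR-7a. Of 10 tested reported miR-146a targets, 3 were higher with miR-7a (30% against 3.79% of all genes tested), Irak1 and Irak2 among them, and 1 was lower (Relb, 10% against 2.73%). The median was -0.04, and it was 0.0418 without LPS_miR-146a replicate 4. The replicate block gave 3 higher and 4 lower, where it called 11.3% and 9.68% of all genes. The count of higher targets was 0 when LPS_miR-146a replicate 1 or LPS_miR-7a replicate 3 was left out, and 1 without LPS_miR-146a replicate 2 or 3 or LPS_miR-7a replicate 2. That of lower targets was 0 without LPS_miR-146a replicate 2 or 3 or LPS_miR-7a replicate 3 or 4, and 2 without LPS_miR-146a replicate 4. Irak1, the kinase that carries Toll-like receptor signals to Traf6 (chrX:74013914-74023918, minus strand), was at 108, 132, 120 and 115 CPM in LPS_miR-7a and at 74.8, 85.3, 76.1 and 75.0 CPM in LPS_miR-146a. The groups did not overlap, and the log2 fold change was 0.60 ± 0.12 (SE), with a limma adjusted p of 0.0161 that was 0.0577 without LPS_miR-146a replicate 3. Its 3′ UTR holds a pair of 8-mer sites for miR-146a (chrX:74015388-74015408 and chrX:74015372-74015392). Traf6, the ubiquitin ligase of the same pathway (chr2:101678429-101701669, plus strand), has 4 such sites in its 3′ UTR, the one nearest its stop codon at chr2:101697951-101697971, and it was at 53.1 to 85.6 CPM with miR-7a and at 54.4 to 88.4 CPM with miR-146a, in overlapping ranges (log2 fold change -0.00 ± 0.20 (SE), limma adjusted p = 0.991). The sites are shown side by side with the seed match in capitals, read from the GRCm38 genome on the strand of the gene.
Irak1 site nearer the stop codon: gaggtcaaAGTTCTCatgctt
Irak1 site farther on: tgcttggaAGTTCTCatagtg
Traf6 site: tggtgttgAGTTCTCatttag
Axl site (chr7:25758415-25758435): gagttcaaAGTTCTCaaagat
Rpa1 site (chr11:75301098-75301118): tccgctccAGTTCTCagccac
Axl and Rpa1, higher with miR-7a as given above, also carry an 8-mer, and they are shown because they hold one. Genes with a miR-146a site can also be lower with miR-7a. Ago1, with an 8-mer, and H2-K1, with a 7-mer, had log2 fold changes of -0.72 and -0.61, and both also hold a miR-7a site. Across the Toll-like receptor 4 complex and its adaptors, 3 of 18 were higher (16.7% against 3.79% of all genes tested) and 2 lower (11.1% against 2.73%). The block called 4 higher and 7 lower, where it called 11.3% and 9.68% of all genes. Without the block none passed without LPS_miR-146a replicate 1 or without LPS_miR-7a replicate 2 or 3. Myd88, the adaptor at the head of the pathway, rose by 0.66 (limma adjusted p = 0.0243, 0.0863 without LPS_miR-7a replicate 3), and Irak4 fell by 0.80 (0.0328, 0.0973 without LPS_miR-146a replicate 1).

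Of 12 tested reported miR-7a targets, 2 were lower (16.7% against 2.73% of all genes tested), Pik3cd among them, and none higher, with a median of -0.36. With the replicate block 5 were lower and 1 higher, where it called 9.68% and 11.3% of all genes. Against scramble, the list had a median of -0.13 for miR-7a, with 1 called lower, and of 0.07 for miR-146a. The lower count was 0 without LPS_miR-7a replicate 3 and 1 without LPS_miR-146a replicate 3, and 1 was higher without LPS_miR-146a replicate 4. Pik3cd, a leukocyte phosphoinositide 3-kinase, was at 65.0, 118, 87.1 and 96.0 CPM with miR-7a and at 162, 226, 177 and 143 CPM with miR-146a (log2 fold change -0.97, limma adjusted p = 0.0137, 0.0501 without LPS_miR-7a replicate 3). Irs2, an insulin receptor adaptor, has 1 8-mer and 1 7-mer site, and its difference of -0.19 did not pass the test. Among genes outside that list, Cmtm3, a small membrane protein (chr8:104339410-104347672), was at 30.004, 32.3, 22.8 and 31.1 CPM against 84.0, 77.2, 69.1 and 75.2 CPM. Its libraries were tightly grouped, with a log2 fold change of -1.42 ± 0.15 (SE) and a limma adjusted p of 0.000639. The sites below, from the genome of the same build, are from 4 lower genes that were chosen because they hold a site. Hgsnat, Marco, Nr4a1 and F13a1, also lower with miR-7a, have 0 such sites in their 3′ UTRs.
Cmtm3 site (chr8:104347230-104347250): ctagccaaGTCTTCCattaga
Egr3 site (chr14:70080608-70080628): aggagatgGTCTTCCatctgc
Cat site (chr2:103454188-103454208): tgcatcatGTCTTCCaaaagt
Pik3cd site (chr4:149650322-149650342): aacccctaGTCTTCCaacctg
Higher genes can carry the same site, as Gbp6 does with 1 8-mer and 1 7-mer.

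Over all 10835 tested genes with an annotated 3′ UTR, genes were grouped by the sites they hold. The 1299 genes with a miR-7a site alone had a median log2 fold change of -0.09. Of them 39 were called higher (3.00%) and 74 lower (5.70%), and 59.6% were below 0. The 1140 genes with a miR-146a site alone had a median of 0.05, with 64 higher (5.61%) and 30 lower (2.63%), and 56.3% were above 0. The 8049 genes with neither site had a median of 0.02, with 345 higher (4.29%) and 190 lower (2.36%). Of these 47.3% were below 0 and 52.7% above 0. The lower share of the miR-146a class lies near that of genes with neither site. Genes with both sites numbered 347 (median -0.06). The median with neither site was 0.0409 without LPS_miR-146a replicate 1, and that with both sites was -0.0358 without LPS_miR-146a replicate 2 and -0.0367 without LPS_miR-7a replicate 3. The medians of the miR-7a class lay below 0 in each of the 4 replicate pairs, from -0.09 to -0.07, and those of the class with neither site lay above 0, at 0.0127, 0.0359, 0.0285 and 0.0550 in pairs 1 to 4. The miR-146a class was at 0.0797, 0.0524, 0.0314 and 0.0414 in the same pairs, above the class with neither site in pairs 1 and 2, nearly level with it in pair 3 and below it in pair 4. Against scramble, the miR-146a class had a median of 0.0037 for the miR-146a mimic and 0.06 for the miR-7a mimic, beside -0.02 and 0.02 for genes with neither site, and in vehicle its median for miR-7a over miR-146a was -0.02. The miR-7a class had medians of -0.02 for the miR-7a mimic and 0.05 for the miR-146a mimic against scramble, and of -0.13 in vehicle. Restricting to 8-mers gave -0.11 for miR-7a (393 genes, 14 higher, 3.56%, and 38 lower, 9.67%). It gave 0.08 for miR-146a (405 genes, 33 higher, 8.15%, and 10 lower, 2.47%). These shifts are small beside the changes of single genes, and the classes differ in UTR length: the median length was 2249 nt with a miR-7a site, 2486 nt with a miR-146a site and 1066 nt with neither.

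**Figure D4:**
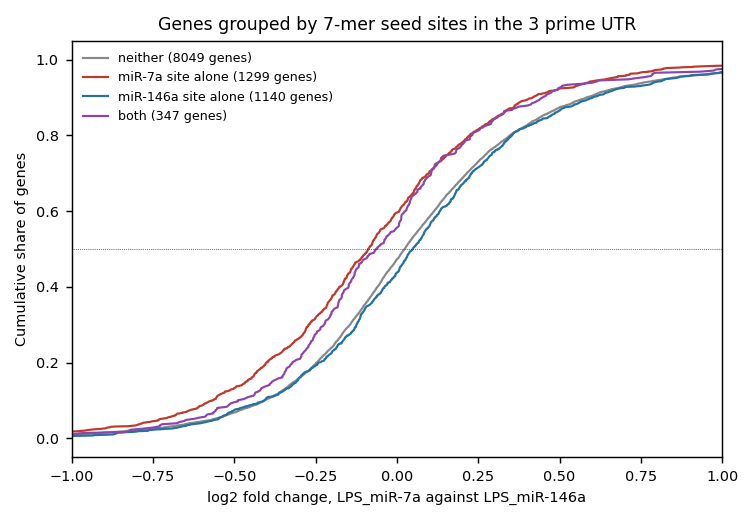
Cumulative share of genes against the log2 fold change of LPS_miR-7a over LPS_miR-146a, for genes with a miR-7a site alone (median -0.09), a miR-146a site alone (0.05), both sites (-0.06) and neither site (0.02). Around the median, marked by a dotted line, the miR-7a curve lies to the left of the curve for neither site and the miR-146a curve slightly to its right.

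Each mimic was then set beside the LPS_scramble libraries, which both contrasts share, so that the values are given side by side and not correlated. Against scramble, 394 of 13163 genes were called for miR-7a (2.99%; 1220 with the block) and 306 of 12700 for miR-146a (2.41%; 1310 with the block). Single libraries moved these counts: the miR-7a count was 142 and 118 without LPS_miR-7a replicates 2 and 3 and 166, 142 and 71 without LPS_scramble replicates 1, 3 and 4, and the miR-146a count was 79 and 40 without LPS_miR-146a replicates 1 and 3 and 127, 175, 155 and 31 without LPS_scramble replicates 1 to 4. The interferon-stimulated genes had a median of 0.77 for miR-7a over scramble and of -0.36 for miR-146a over scramble, and guanylate-binding proteins had medians of 1.25 and -0.37. DNA replication genes had medians of 0.25 and -0.89, with 24 of them called lower for miR-146a. Histones had medians of -0.21 and -1.10. Mcm6 was at 150, 207, 186 and 233 CPM with scramble, and Rsad2 at 137, 115, 180 and 84.1 CPM. In the limma fits, Mcm6 with miR-7a was 0.20 above scramble and with miR-146a 1.27 below it on the log2 scale, whereas Rsad2 was 1.52 above and 0.56 below. Nr4a1 was at 10.3 to 16.1 CPM with scramble, near its values with miR-146a, and F13a1 at 21.4 to 39.01 CPM, near its values with miR-7a. Immediate-early genes had medians of -0.60 and 0.20.

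**Figure D5:**
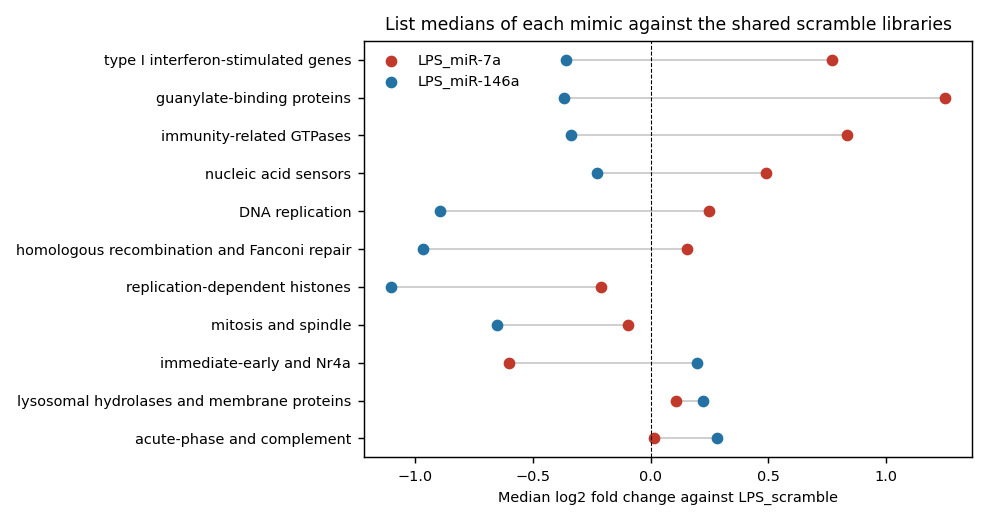
Median log2 fold change of 11 gene lists for miR-7a over scramble and for miR-146a over scramble, both under LPS and with the same 4 scramble libraries. DNA replication sits at 0.25 and -0.89 and interferon-stimulated genes at 0.77 and -0.36.

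Without LPS, VEH_miR-7a differed from VEH_miR-146a in 623 of 11029 genes (5.65%), 400 higher and 223 lower, and in 1588 with the replicate block. The count was 260 and 217 without VEH_miR-7a replicates 2 and 3 and 198 without VEH_miR-146a replicate 3. The question whether the miR-7a to miR-146a difference depends on LPS was put to an interaction term, for which 20 of 12408 genes were called (0.161%), all with a lower value under LPS than in vehicle, and 204 with the block, of which 61 were higher and 143 lower. Without VEH_miR-7a replicate 1 it called 199 genes, the 20 among them. Of the 20, 8 were histones and 4 were host genes of small nucleolar RNAs. Hist1h4h was at a mean of 3536 CPM in VEH_miR-7a and 141 CPM in VEH_miR-146a, and Snhg3 at 2301 and 117 CPM. Their interaction log2 values were -3.88 and -4.60 (limma adjusted p = 7.04e-06 for both). Beside these, small structural RNA genes took 4.20%, 38.6%, 34.7% and 37.2% of the counts of VEH_miR-7a replicates 1 to 4, in libraries of 1228143 to 5336097 counts, and 2.99% to 5.86% in the 8 LPS libraries. Their part in the interaction was not tested. Over the 24 interferon-stimulated genes tested in both conditions, the median was 0.25 in vehicle and 0.81 under LPS, with 1 called higher in vehicle. In the interaction, 0 of 32 tested passed in limma, 7 had an unadjusted p under 0.05, and edgeR called 1, DESeq2 2 and the block 4. The 43 replication genes had a median of 1.06 in vehicle and 1.11 under LPS, with 22 called higher in vehicle. In their interaction, limma, edgeR, DESeq2 and the block called 0, and 1 had an unadjusted p under 0.05.

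Of cytokine and effector genes of the classical LPS response, the differences on the log2 scale were 0.48 for Tnf (limma adjusted p = 0.211), -0.41 for Nos2 (0.628) and -0.90 for Il1b (0.436), and none of these passed the test. Il1b was at 1.61 to 12.2 CPM with miR-146a, with replicates 1 and 3 high, and at 2.70 to 3.31 CPM with miR-7a. Il1rn, the natural antagonist of interleukin 1, was at 127 to 153 CPM with miR-7a and at 49.7 to 62.9 CPM with miR-146a (log2 fold change 1.25, limma adjusted p = 0.000639). Irg1, which makes itaconate, rose by 1.18 (limma adjusted p = 0.0157, 0.0581 without LPS_miR-7a replicate 3). Txnip, a thioredoxin inhibitor, was at 453, 468, 452 and 488 CPM against 246, 141, 253 and 53.5 CPM (log2 fold change 1.61, limma adjusted p = 0.0287, 0.0814 without LPS_miR-7a replicate 3). Its list, with glycolysis, pentose phosphate and hypoxia genes, had 2 of 25 higher (Txnip and Arrdc4, 8% against 3.79% of all genes tested). It had 4 lower (16% against 2.73%), Slc2a1 and Gapdh among them, with 20 of 25 below 0 and a median of -0.25. Under the block 3 were higher and 10 lower, where it called 11.3% and 9.68% of all genes, so the higher count lies near that share. Slc2a1, the main glucose transporter, fell by 1.08 (limma adjusted p = 0.0223, 0.0782 without LPS_miR-7a replicate 3). The lower count of this list was 0 without LPS_miR-7a replicate 3, 2 without LPS_miR-146a replicate 4 and 1 without LPS_miR-7a replicate 1 or 2 or LPS_miR-146a replicate 1, 2 or 3, and the higher count was 1 without LPS_miR-146a replicate 2 or LPS_miR-7a replicate 1, 2 or 3.
Of 12 tested genes for microRNA processing and silencing, 3 were lower (Ago1, Ago3 and Ago4, 25% against 2.73% of all genes tested) and none higher. With the block 4 were lower and 2 higher, where it called 9.68% and 11.3% of all genes. The lower count was 0 without LPS_miR-7a replicate 3 and 1 without LPS_miR-7a replicate 1 or 2 or LPS_miR-146a replicate 1, 2 or 4. Of the 28 genes the study listed as targets in phagocytic microglia, 1 was called (Cd164, higher by 0.68, limma adjusted p = 0.0126, 0.0502 without LPS_miR-146a replicate 3), and of 23 tested pro-inflammatory genes of the study 1 was higher, both shares near the 3.79% of all genes tested. Disease-associated microglia markers were higher in 3 of 17 and lower in 1 (Apoe), against 3.79% and 2.73% of all genes, and the lower count was 0 without LPS_miR-146a replicate 3 or LPS_miR-7a replicate 3. No gene was called by limma or edgeR among 75 nuclear oxidative phosphorylation genes (2 at an unadjusted p under 0.05, 1 called by DESeq2, 6 with the block), 71 cytosolic ribosomal protein genes (0, 0 and 6) and 22 cholesterol and fatty acid synthesis genes (5, 2 and 5). The 12 mitochondrially encoded genes had a median of -0.77 and were all below 0, with 0 called by limma, edgeR or DESeq2, 4 at an unadjusted p under 0.05 and 10 lower under the block, beside the shares of mitochondrial counts given above.

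A limit of the table touched Brox, a gene with a Bro-type domain (chr1:183276352-183297269). Depending on where the lost decimal mark stood, its LPS_miR-7a values can be read as 7.46 to 8.41 CPM with 3 decimals or as 74.6 to 84.1 CPM with 2, and its LPS_miR-146a values as 77.4 to 99.7 CPM with 3 or as 773.9 to 996.8 CPM with 2. It is 1 of 335 genes left out because a value could not be read with certainty.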

How the data were processed

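BV-2 RNA was sequenced as ribosomal RNA-depleted total RNA, single-end. Per the labels and methods, the authors quantified genes with nf-core rnaseq 3.0 on GRCm38 and deposited estimated counts. Many deposited values had lost their decimal mark, and the number of decimals (0 to 3) was restored per value from the other libraries of the gene, with priors of 0.01, 0.09 and 0.9 for 1, 2 and 3 decimals. The group labels were used: replicates of the same group entered directly, and other groups with a wider spread allowed. What this does to the spread within groups was not tested. Of values above 0, 28.6% were given decimals, and 335 genes with a value of posterior under 0.9 were left out of the comparison. Restored counts were fitted as they stood, not rounded, with limma 3.58.1 (voom) after filterByExpr and TMM in edgeR 4.0.16, in R 4.3.3, with Benjamini-Hochberg adjustment. DESeq2 1.42.0 and the edgeR quasi-likelihood test, run on rounded counts, were alternatives. The restoration and the limma fit of LPS_miR-7a against LPS_miR-146a, with and without the block, were tested on simulated data. The other steps were not. The 8 libraries held 3646700 to 11855520 counts.

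Groups came from the labels. Same-numbered libraries deviated together (correlations 0.276, 0.399, 0.258 and 0.104 for numbers 1 to 4), so the numbers were taken as pairs, although LPS_miR-7a replicate 4 correlated more with LPS_miR-146a replicate 3 (0.188). Named genes were the 12 largest rises and falls among called genes over a mean of 2 CPM that moved one way in every pair, the leading called members of each list, genes with seed sites, interaction genes and fixed controls. The comparison, members and lists were chosen with earlier results of these data known. Gene positions are from GENCODE M21, of which 563 of the 45706 gene IDs were missing. UTR sites were read from the GRCm38 genome and promoters and microRNAs from RefSeq. Counting was not known to use strand, so overlapping antisense genes cannot be told apart. A few genes are not reported here.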

Additional observations from a re-analysis of the deposited data

Results flagged for a closer look

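Values that stood out from the other 3 replicates of their group were looked for in 258 groups of 4, by the gap to the nearest replicate against the range of the group, and 11 were found (4.3%), against about 5% by chance. In LPS_miR-7a replicate 3 these were Gbp5 at 6.52 CPM, Ifit3 at 112 CPM and Hist1h4j at 107 CPM, all the highest of their group. In LPS_miR-7a, Rpl3 in replicate 4 (1833 CPM) and Cd164 in replicate 1 (442.7 CPM) also stood apart. In LPS_miR-146a replicate 2 they were Ccl6 at 27.3 CPM, Gbp6 at 22.6 CPM, Tpp1 at 437.2 CPM and Irak1 at 85.3 CPM, and in LPS_miR-146a replicate 4 Ccl8 at 1.34 CPM and Zbp1 at 3.22 CPM.

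The difference between the mimics differed between LPS and vehicle for 20 genes by the interaction term in limma. The strongest 5 by p had interaction log2 values of -4.60 (Snhg3), -3.88 (Hist1h4h), -5.17 (AC122546.1), -3.66 (Snhg20) and -3.88 (Hist1h4j). Structural RNA genes took 34.7% to 38.6% of the counts in 3 of the 4 VEH_miR-7a libraries, and their part in these values was not tested.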

How the results depend on the processing

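The count of 824 called genes was 2650 with the replicate block, 1376 with DESeq2, 1362 after removal of GC content and length, 1408 when all 16 LPS libraries shared 1 fit, 41 on the values as deposited (32 higher and 9 lower, 78.0% higher against 58.1%) and 220 to 846 when 1 library was left out. No filter on low counts gave 575 and edgeR 780. The interaction count of 20 was 204 with the block, 83 with edgeR, 174 with DESeq2 (chosen after seeing the data) and 15 to 199 without 1 library. The other contrasts gave 1588 (vehicle), 1220 (miR-7a over scramble) and 1310 (miR-146a over scramble) with the replicate block, and 198 to 588, 71 to 405 and 31 to 266 without 1 library. Counts of higher genes without 1 library were 19 to 36 for replication, 3 to 6 for guanylate-binding proteins, 11 to 41 for histones and 1 to 10 for mitosis. Histones had 56 and mitosis 26 with the replicate block, and mitosis had 5 with no filter, 13 with DESeq2 and 14 after GC and length.

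On the values as deposited, whose lost decimal marks inflate single libraries by construction, 1 interferon-stimulated and 1 immediate-early gene and 0 guanylate-binding, replication, histone, recombination and mitosis genes were called. There the medians changed sign for study pro-inflammatory genes (0.46), disease-associated microglia (0.71), microglial identity (1.09), NRF2 (0.15), Atf4 (-0.0855), microRNA processing (-0.0719) and macrophage markers (0.40), and so did Col20a1 (0.18), Hgsnat (0.29), Irak1 (-4.30), Irak2 (-5.03), Irak4 (3.60), Mb21d1 (-0.26), Hist1h4n (-1.04), Fcgr1 (-0.75), Apoe (2.30), Slc2a1 (1.24) and Hmox1 (1.55). Without 1 library the median of reported miR-146a targets ranged from -0.179 to 0.0418 and that of microRNA processing from -0.0142 to 0.194. The miR-7a site median of -0.0876 was -0.0649 with no filter, -0.0737 after GC and length, -0.0491 as deposited, -0.099 in 16 libraries, -0.109 for 8-mers, -0.0759 for UTRs of middle length and -0.0965 to -0.0729 without 1 library. The miR-146a site median of 0.0492 was 0.156 as deposited, 0.0841 for 8-mers, and 0.116, 0.0841 and 0.0201 from short to long UTRs. The median with both sites, -0.06, was -0.0284 after GC and length and -0.0043 as deposited. That with neither site, 0.0241, was 0.0128 with DESeq2, 0.015 with edgeR, 0.0134 in 16 libraries, 0.0398 with no filter and 0.115 as deposited. The cause was not tested for the other changes. Depth limits genes of a few CPM.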
